A study of Mus musculus with 8 samples.

Results

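The genes described here are 9 members of the JAK-STAT pathway, the kinase genes Jak1, Jak2 and Tyk2 and the transcription factor genes Stat2, Stat3, Stat4, Stat5a, Stat5b and Stat6, chosen by symbol out of 54146 genes in each library. They were measured by RNA-seq in primary mouse cortical astrocytes in 4 groups with 2 libraries each: control KD (knockdown) and GSTM1 KD, each left at the basal level or given 50 ng/ml of TNF-α during 6 h. The cultures came from C57BL/6 pups at postnatal days 2 to 5, with brains pooled per flask, and every group was infected with a lentivirus and selected with puromycin; GSTM1 KD cells carried a short hairpin RNA (shRNA) against Gstm1 and control KD cells a non-silencing shRNA. The virus was added to mixed glia, before microglia were removed by shaking and CD11b-based depletion, so the knockdown was not restricted to astrocytes. The question for these genes was whether their transcripts differed between GSTM1 KD and control KD astrocytes in either state, and how TNF-α moved them in each.

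JAK proteins are tyrosine kinases that sit on the intracellular tails of cytokine receptors. When a cytokine brings receptor chains together, the kinases phosphorylate each other and the receptor, STAT proteins dock there, are phosphorylated, pair and move to the nucleus, where they bind gamma-activated sequences or, for the STAT2 complex with IRF9, the interferon-stimulated response element (ISRE). In astrocytes STAT3 is known as a regulator of reactive gliosis. RNA levels say nothing of phosphorylation.

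The libraries held 17349676 to 34434633 expected counts (fragments per gene as estimated by RSEM), and 3 counts, taken as the floor of detection, stood at 0.0848 to 0.1805 CPM, the counts scaled to a common library total after TMM normalization; this floor covers counting error only, because no molecular identifiers were used. The basal Gstm1 counts of 8153 and 9644 in control KD stood against 676 and 626 in GSTM1 KD, and the stimulated ones of 4851 and 6492 against 527 and 405. All 10 astrocyte markers had counts in every group, but their summed level was 3231 and 7207 CPM in the basal control KD libraries and 6571 and 9607 CPM in the basal GSTM1 KD libraries, with 3317 to 7340 CPM and 6725 to 9519 CPM with TNF-α. Gfap, at 920.8 to 5631 CPM, had the highest level among them, and of these 10 markers 0 were called higher and S100b was called lower in GSTM1 KD in both states. Markers of mural cells and fibroblasts (7 of 7 with counts) summed to 3611 to 3883 CPM in control KD and 1819 to 2051 CPM in GSTM1 KD in the basal state, and to 3004 to 3203 CPM and 1622 to 1812 CPM with TNF-α, a sum made up mostly of Acta2 (1335 to 3587 CPM, with no other marker above 211.3 CPM). Of 6 tested, Acta2 and Col1a2 were called lower in GSTM1 KD in both states and Pdgfrb was called higher with TNF-α, and the median log2 fold changes were -0.18 in the basal state and -0.05 with TNF-α. Endothelial markers summed to 16.3 to 18.2 CPM against 7.43 to 9.22 CPM, with Cldn5 at 0, and to 19.3 to 24.2 CPM against 10.4 to 14.9 CPM with TNF-α. Microglial and myeloid markers summed to 6.14 to 13.2 CPM against 3.66 to 5.92 CPM, and to 6.74 to 13.1 CPM against 4.02 to 7.11 CPM with TNF-α, with 0 of 4 tested called in either state. Markers of the oligodendrocyte lineage summed to 173.9 to 223.6 CPM against 144.4 to 154.1 CPM, and to 174.8 to 223.6 CPM against 147.8 to 169.8 CPM with TNF-α, with Olig2 called lower in GSTM1 KD in both states. That sum was mostly Olig2 (47.3 to 150.2 CPM) and Cspg4 (43.35 to 113 CPM), with no other marker of the list above 6.42 CPM. Neuronal markers summed to 77.9 to 84.4 CPM against 90.2 to 92.6 CPM, and to 75.2 to 78.3 CPM against 72.2 to 80.5 CPM with TNF-α, with 0 of 3 tested called. The neuronal sum was mostly Tubb3 (66.06 to 86.58 CPM), and Snap25 and Dcx had at most 2 counts. Choroid and ependymal markers summed to 105.8 to 161.7 CPM against 130.5 to 144.6 CPM, and to 91.3 to 106.6 CPM against 119.8 to 133.2 CPM with TNF-α, with Folr1 called higher in GSTM1 KD in both states. Nearly all of it was Foxj1 (91.06 to 161 CPM), with no other marker of the list above 2.755 CPM. The part of these other cells in the differences between GSTM1 KD and control KD below was not tested, and in bulk samples fewer cells of a type and less RNA per cell cannot be told apart. Replicates differed by more than sampling noise in all 4 groups, by a factor of 13.8 to 55.4 in variance, most of all in control KD in the basal state.

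Of the 9 members, 8 were expressed well above the floor in every library, and Stat4 was not. TPM values are the authors' abundances scaled by transcript length and library total so that genes can be compared. By group mean they put Stat3 first and Jak1 second in all 4 groups. In control KD in the basal state the mean TPM was 78.7 for Stat3, 60.5 for Jak1, 25.2 for Jak2, 13.3 for Stat2, 12.8 for Stat6, 11.0 for Stat5b, 8.84 for Tyk2 and 5.96 for Stat5a (n = 2 each). The ranges of Stat3 and Jak1 overlapped there, as did those of Stat2 and Stat6 and of Stat6 and Stat5b, so the order of these neighbours was not resolved. In GSTM1 KD with TNF-α the order changed, with Stat2 at a mean of 72.7 TPM above Jak2 at 35.0 TPM, Stat5b at 20.1, Tyk2 at 17.1, Stat5a at 11.2 and Stat6 at 7.63 TPM. There the ranges of Jak1 and Stat2 were the only neighbouring ones that overlapped. In replicate 1 of that group Stat2, at 89.91 TPM, also stood above Stat3, at 87.71 TPM.

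**Figure D1:**
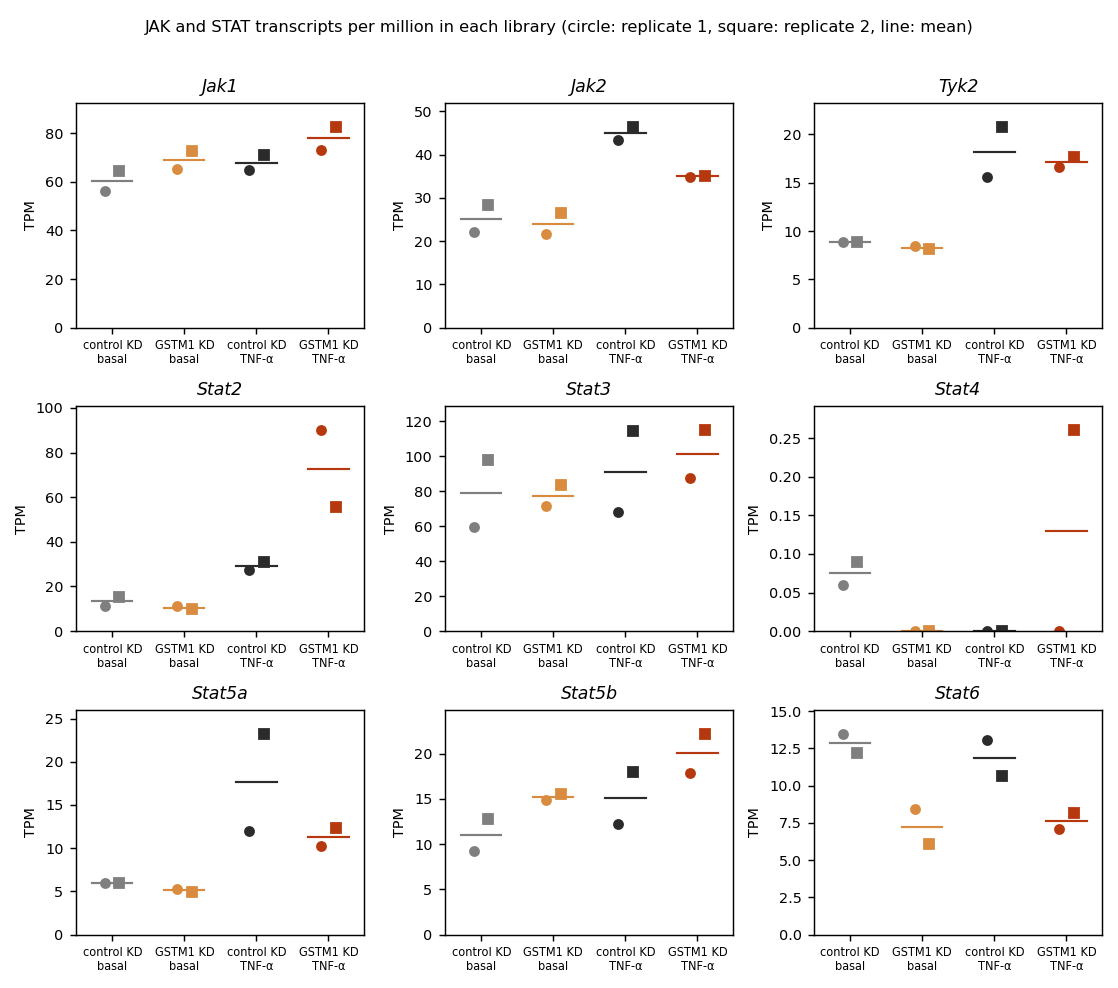
Level of each member in TPM (vertical axis, linear from 0, a scale of its own for each gene) in the 4 groups, with a circle for replicate 1, a square for replicate 2 and a line at the mean of both. Stat2 in GSTM1 KD with TNF-α, at 55.40 and 89.91 TPM, lies above all other libraries, Stat6 is lower in all 4 GSTM1 KD libraries than in all 4 control KD libraries, and Stat4 stays under 0.3 TPM.

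Among the kinases, Jak1, which serves interferon, gp130 and common gamma chain receptors, was the most abundant and, with Stat4 aside, had the smallest fold range of all members over the 8 libraries. It lies at chr4:101152367-101265282 (GRCm38, minus strand). Its TPM was 56.38 and 64.52 for control KD against 65.17 and 72.74 for GSTM1 KD in the basal state, and 64.72 and 70.84 for control KD against 73.11 and 82.53 for GSTM1 KD with TNF-α. In TPM the 2 libraries of GSTM1 KD lay just above those of control KD in both states. In CPM the groups overlapped in both, at 151.3 and 171 against 167.4 and 189.8 in the basal state and 173.6 and 195.7 against 194.4 and 215.6 with TNF-α. The log2 fold change of GSTM1 KD over control KD was 0.15 (SE 0.125, edgeR adjusted p = 0.458) in the basal state and 0.13 (SE 0.112, edgeR adjusted p = 0.460) with TNF-α, and TNF-α moved it by 0.20 (SE 0.117) in both, with edgeR adjusted p = 0.633 in control KD and 0.704 in GSTM1 KD. None of these passed the threshold of 0.05.

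Jak2, the kinase of interferon-gamma, growth hormone, prolactin and GM-CSF receptors, rose with TNF-α in control KD astrocytes and was lower in GSTM1 KD than in control KD after the stimulation. It lies at chr19:29251828-29313080 (GRCm38, plus strand). It stood at 22.05 and 28.33 TPM in control KD and 21.75 and 26.41 TPM in GSTM1 KD in the basal state, where the groups overlapped. With TNF-α it stood at 43.46 and 46.40 TPM in control KD and at 34.91 and 35.07 TPM in GSTM1 KD. Both stimulated GSTM1 KD libraries lay below both stimulated control KD libraries and above all basal ones. The rise in control KD was 1.82-fold (log2 fold change 0.86, SE 0.143, edgeR adjusted p = 0.0260), and the level in GSTM1 KD with TNF-α was 0.740 times that of control KD (log2 fold change -0.44, SE 0.0948, edgeR adjusted p = 0.0385). In GSTM1 KD the log2 change with TNF-α was 0.58 (SE 0.143) and did not pass (edgeR adjusted p = 0.113), though it passed with the replicate number as a block (0.0187), without a filter on low counts (0.00104), with only the 4 GSTM1 KD libraries (0.0478) and in DESeq2 (0.0396). That the response was smaller in GSTM1 KD was not shown: the difference of the responses was -0.29 on the log2 scale (SE 0.201, edgeR adjusted p = 1.00). The lower level with TNF-α lost significance with all 8 libraries in the fit, with the effective lengths as offsets, and without either GSTM1 KD library. Its log2 fold change was -0.49 to -0.37 with 1 library left out. The rise in control KD lost significance with only the 4 control KD libraries in the fit (edgeR adjusted p = 0.156), and without basal replicate 1 or either stimulated control KD library. The log2 size of that rise was 0.70 to 1.06 with 1 library left out.

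Tyk2, the kinase of the type I interferon receptor and of the IL-12 and IL-10 receptor families, rose in both knockdowns. It lies at chr9:21104068-21131243 (GRCm38, minus strand) and shares 554 exonic bases with an antisense gene that had at most 3 counts. In the basal state it had 8.82 and 8.86 TPM in control KD and 8.41 and 8.14 TPM in GSTM1 KD. Stimulated libraries had 15.59 and 20.76 TPM in control KD and 16.64 and 17.65 TPM in GSTM1 KD. All 4 stimulated libraries were higher than all 4 basal libraries, and the stimulated groups overlapped. The change was 2.07-fold in control KD (log2 fold change 1.05, SE 0.151, edgeR adjusted p = 0.0151) and 2.04-fold in GSTM1 KD (log2 fold change 1.03, SE 0.153, edgeR adjusted p = 0.0158), with a difference of -0.02 on the log2 scale (SE 0.21, edgeR adjusted p = 1.00). Between GSTM1 KD and control KD the log2 fold change was -0.10 (SE 0.130) in the basal state and -0.14 (SE 0.166) with TNF-α, neither past the threshold. The rise in GSTM1 KD lost significance when any 1 of its 4 libraries was left out, though its log2 fold change stayed at 0.96 to 1.11. The rise in control KD lost significance when either basal control KD library was left out or only the 4 control KD libraries were fitted (edgeR adjusted p = 0.138). Its log2 fold change was 0.83 to 1.25 with 1 library left out.

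Stat2, the STAT of the type I and type III interferon response, was higher in GSTM1 KD than in control KD astrocytes with TNF-α and not past the threshold without it. It lies at chr10:128270559-128292849 (GRCm38, plus strand). The RefSeq promoter of Stat2, from 250 bases before to 50 bases after its RefSeq start at position 128270498, is shown because it holds a match to the ISRE, the element that the complex of STAT2 and IRF9 binds. It spans chr10:128270248-128270547 on the plus strand of GRCm38.p6, so it ends upstream of the GENCODE start of the gene given above, and the capitals mark the match.

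Stat2 promoter: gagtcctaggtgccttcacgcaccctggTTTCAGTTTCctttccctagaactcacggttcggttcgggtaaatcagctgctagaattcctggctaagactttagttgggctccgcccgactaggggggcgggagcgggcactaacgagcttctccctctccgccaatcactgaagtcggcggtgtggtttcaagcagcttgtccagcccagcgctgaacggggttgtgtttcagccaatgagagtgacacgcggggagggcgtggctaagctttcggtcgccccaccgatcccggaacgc

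The letters searched were GAAANNGAAA on both strands, and the match of Stat2, at chr10:128270276-128270285 (bases -222 to -213 from the RefSeq start), reads GAAACTGAAA on the minus strand. Of 32851 promoters of the same length, 3.44% held these letters. Of the 12 member promoters 2 did, that of Stat2 and the second start of Stat4. The Stat4 window is given for comparison with those of Irgm1 and Irgm2, the genes of immunity-related GTPases that are described with Stat2 below. Mnda, which is described there too, has no window here. The capitals mark the match in each, or, for Irgm1, 2 matches that overlap.

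Stat2 window: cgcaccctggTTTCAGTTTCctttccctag
Stat4 window: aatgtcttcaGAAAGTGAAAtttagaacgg
Irgm1 window: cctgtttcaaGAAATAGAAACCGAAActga
Irgm2 window: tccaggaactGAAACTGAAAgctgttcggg

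The Stat4 match lies at chr1:52008143-52008152 (plus strand), the Irgm1 matches at chr11:48871441-48871450 and chr11:48871435-48871444 (minus strand) and the Irgm2 match at chr11:58214913-58214922 (plus strand), all in GRCm38.p6. The promoters of Jak1, Jak2, Tyk2, Stat3, Stat5a, Stat5b and Stat6 held no match to these letters. The gamma-activated sequence TTCNNNGAA, present in 8.3% of all promoters, was in 0 of the 12 member promoters, and the NF-κB consensus, present in 8.46%, was in 1, a second start of Stat5a. A match is a description of letters and was not tested for binding here.

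Basal Stat2 counts of 766 and 818 for control KD, or 11.14 and 15.46 TPM, compared with 494 and 386 for GSTM1 KD, or 11.41 and 9.74 TPM. With TNF-α, control KD had 1318 and 1111 counts, or 27.49 and 31.05 TPM, and GSTM1 KD had 4039 and 1830 counts, or 89.91 and 55.40 TPM. The basal groups overlapped in TPM. In CPM the basal GSTM1 KD libraries (21.2 and 19.34) lay below those of control KD (21.66 and 31.99). The stimulated GSTM1 KD libraries lay above the stimulated control KD libraries, though their own replicates were also the farthest apart. Stat2 was 2.32-fold higher in GSTM1 KD than in control KD with TNF-α (log2 fold change 1.22, SE 0.275, edgeR adjusted p = 0.0413). In the basal state the log2 fold change was -0.40 (SE 0.212, edgeR adjusted p = 0.252). That basal value was -0.66 without replicate 1 of basal control KD and -0.10 without replicate 2. TNF-α raised Stat2 7.20-fold in GSTM1 KD (log2 fold change 2.85, SE 0.303, edgeR adjusted p = 0.00421). In control KD the log2 change with TNF-α was 1.21 (SE 0.287), which missed the threshold in edgeR (adjusted p = 0.0907) and passed it in DESeq2 (adjusted p = 9.3e-04) and in edgeR without a filter on low counts (adjusted p = 7.38e-16).

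The difference between these responses of Stat2 was 1.64 on the log2 scale (SE 0.406), the largest among the members. In edgeR it had an unadjusted p of 0.00464 and an adjusted p of 1.00, in DESeq2 an adjusted p of 0.0392, and in edgeR without the filter on low counts an adjusted p of 1.52e-14. Stat2 thus passed for the difference of responses in these other settings and not in the reported one. For this contrast edgeR called 0 genes with other scaling between libraries or with at least 10 counts in every library. It also called 0 with the replicate number as a block or with effective lengths as offsets. Without the filter it called 103 genes higher and 31 lower. The higher level in GSTM1 KD with TNF-α kept its side of the threshold in 8 of 8 other settings, from 1.17 to 1.26 on the log2 scale. Its size depended on replicate 1 of that group. Without that library the log2 fold change was 0.75 and did not pass, in a fit that leaves 1 library in the group. The rise with TNF-α in GSTM1 KD lost significance without either basal GSTM1 KD library, and was 2.37 to 3.2 on the log2 scale with 1 library left out.

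The 3 genes whose levels were most like those of Stat2 over the 8 libraries, by Pearson correlation of log2(CPM + 0.5) among 15332 genes, were Mnda (r = 0.994), Irgm2 (r = 0.992) and Irgm1 (r = 0.991). Irgm1 was at 31.5 to 40.6 CPM in the basal libraries, at 117.2 and 128.3 CPM in stimulated control KD and at 443.8 and 247.6 CPM in stimulated GSTM1 KD. All points share the same 4 groups, so such values describe the likeness of group means, and no test was made. For Stat6 the genes were Usmg5, Poln and Nudt5 (r = 0.996, 0.992 and 0.992). For Jak2 they were Robo1, Maff and Pde4b (r = 0.992, 0.986 and 0.981), and for Tyk2 Pdgfb, Esrrg and Crispld2 (r = 0.994, 0.992 and 0.991). Poln was low in all 8 libraries, at 0.451 to 0.775 CPM, and Esrrg in the basal ones, at 0.451 to 1.17 CPM. These levels are near the 0.5 added to CPM.

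Stat6, the STAT of IL-4 and IL-13 signalling, fell with the knockdown in both states and was not moved past the threshold by TNF-α in either knockdown. It lies at chr10:127642986-127660957 on the plus strand (GRCm38), the same chromosome as Stat2. Basal counts of 964 and 632 for control KD, or 13.48 and 12.20 TPM, compared with 370 and 240 for GSTM1 KD, or 8.43 and 6.05 TPM. The stimulated values were 13.08 and 10.65 TPM in control KD and 7.07 and 8.19 TPM in GSTM1 KD. Every GSTM1 KD library was lower than every control KD library. The level in GSTM1 KD was 0.537 times that of control KD in the basal state (log2 fold change -0.90, SE 0.182, edgeR adjusted p = 0.0401) and 0.571 times with TNF-α (log2 fold change -0.81, SE 0.151, edgeR adjusted p = 0.0272). TNF-α changed it by -0.07 (SE 0.158) in control KD and 0.04 (SE 0.162) in GSTM1 KD on the log2 scale. The differences between GSTM1 KD and control KD passed in 7 of 8 other settings in each state and missed narrowly with effective lengths as offsets (edgeR adjusted p = 0.0531 and 0.0506). They lost significance without either GSTM1 KD library of the state. With 1 library left out the log2 fold change was -1.11 to -0.72 in the basal state and -0.92 to -0.68 with TNF-α. The last 40 exonic bases of Stat6 are shared with Nab2 on the opposite strand. The study names a directional library kit, and strand use in the counting is not given in the sources used here.

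Stat3, the STAT of the gp130 family of cytokines, was the most abundant member by group mean. It differed more between the replicates of control KD than between group means. It lies at chr11:100885098-100939540 (GRCm38, minus strand). It had 59.73 and 97.72 TPM in control KD and 71.67 and 83.35 TPM in GSTM1 KD in the basal state. In stimulated cells it was at 68.11 and 114.47 TPM in control KD and 87.71 and 114.83 TPM in GSTM1 KD. In all 4 groups the library of replicate 2 was the higher one, and each group's range overlapped that of the other knockdown. The log2 fold change of GSTM1 KD over control KD was -0.06 (SE 0.230, edgeR adjusted p = 0.882) in the basal state and -0.02 (SE 0.263, edgeR adjusted p = 0.964) with TNF-α. Both signs depended on the libraries. In the basal state the value was -0.36 without replicate 1 of control KD and 0.30 without replicate 2, and with TNF-α it was -0.36 and 0.44, of which the last passed (edgeR adjusted p = 0.0277). The sign with TNF-α also changed in 4 of 8 other settings.

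Stat5a and Stat5b, neighbouring genes on chromosome 11 that encode closely related STATs of growth hormone, prolactin and GM-CSF receptors, did not pass in any comparison of the reported fits. They lie at chr11:100859351-100885169 (plus strand) and chr11:100780731-100850724 (minus strand) in GRCm38. Stat5a had 5.94 and 5.97 TPM in control KD and 5.30 and 4.91 TPM in GSTM1 KD in the basal state. With TNF-α it had 12.01 and 23.23 TPM in control KD and 10.20 and 12.28 TPM in GSTM1 KD. All stimulated libraries were higher than all basal ones, with the control KD replicates far apart. The log2 change with TNF-α was 1.31 (SE 0.319, edgeR adjusted p = 0.0950) in control KD and 1.02 (SE 0.324, edgeR adjusted p = 0.245) in GSTM1 KD. For control KD it passed in DESeq2 (adjusted p = 0.00219) and in edgeR with the effective lengths as offsets (adjusted p = 0.0361), with the replicate number as a block (0.0382), without a filter on low counts (2.87e-09) and without replicate 1 of stimulated control KD (0.00466). For GSTM1 KD it passed in edgeR without a filter (adjusted p = 2.41e-05) and with only the 4 GSTM1 KD libraries (0.0196). The effective length of Stat5a, the usable length of its transcripts weighted by their estimated abundance, was 2809 and 3038 bases in basal control KD, 2290 and 2473 bases in stimulated control KD, 3113 and 3046 bases in basal GSTM1 KD and 2789 and 2739 bases in stimulated GSTM1 KD. It was shorter in the stimulated than in the basal libraries of each knockdown, and this was not tested. Between GSTM1 KD and control KD with TNF-α the log2 fold change of Stat5a was -0.52 (edgeR adjusted p = 0.327), and it passed in edgeR without a filter on low counts (adjusted p = 0.0229) and without replicate 1 of stimulated control KD (-0.98, adjusted p = 0.00734), while without replicate 2 of that group it turned to 0.11 (adjusted p = 0.655).

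For Stat5b the TPM was 9.20 and 12.80 for control KD against 14.85 and 15.55 for GSTM1 KD in the basal state, and 12.24 and 18 against 17.92 and 22.20 with TNF-α. In TPM the basal groups did not overlap and the stimulated groups did. In CPM neither did, with stimulated values of 31.96 and 45.85 in control KD against 48.32 and 54.08 in GSTM1 KD. The log2 fold change of GSTM1 KD over control KD was 0.48 (SE 0.149, edgeR adjusted p = 0.0936) in the basal state and 0.37 (SE 0.184, edgeR adjusted p = 0.203) with TNF-α. With the replicate number as a block both passed, with edgeR adjusted p = 0.0104 and 0.0475, and so they did without replicate 2 of control KD of the state (0.65 and 0.66 on the log2 scale, edgeR adjusted p = 0.00461 and 0.00667). Without replicate 1 of control KD of the state they were 0.32 and 0.14 (edgeR adjusted p = 0.122 and 0.462). The basal one also passed without a filter on low counts (edgeR adjusted p = 0.0390). With TNF-α it moved by 0.40 (SE 0.188) in control KD and 0.32 (SE 0.186) in GSTM1 KD, neither past the threshold. Stat5a and Stat5b share 265 words of 100 bases between their transcripts, or 3.44% of those of Stat5a and 4.79% of those of Stat5b, so reads of this length could be divided between them. Stat5a also shares 72 exonic bases with Stat3 on the opposite strand.

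Stat4 (chr1:51987148-52107189, GRCm38, plus strand), the STAT of IL-12 signalling in lymphocytes, had 3 and 3 counts in basal control KD, 0 and 0 in basal GSTM1 KD, 0 and 0 in stimulated control KD and 0 and 2 in stimulated GSTM1 KD. All 8 values are at or below the floor of 3 counts, and the filter on low counts left the gene out of every reported fit.

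Over the members, 8 of 9 passed the filter on low counts and were tested. In the basal state 1 was called between GSTM1 KD and control KD, Stat6, beside 10.2% of all genes tested (5.62% called lower). With TNF-α 3 were called, Stat2 higher and Stat6 and Jak2 lower, beside 16.2% of all genes (7.26% higher and 8.92% lower). TNF-α called 2 members in control KD, Jak2 and Tyk2, beside 2.63% of all genes (2.10% higher), and 2 in GSTM1 KD, Stat2 and Tyk2, beside 2.65% (2.35% higher). In the difference of the responses 0 members and 0% of all genes passed in edgeR with the filter on low counts, where 295 of 15332 genes had an unadjusted p under 0.05, while DESeq2 called 22 genes higher and 5 lower and edgeR without a filter 103 higher and 31 lower, Stat2 among the higher ones in each. With 8 genes tested, 1 call more or less moves the share of members by more than the share of all genes called in the responses to TNF-α. The median log2 fold change of the members was -0.11 in the basal state and -0.08 with TNF-α for GSTM1 KD against control KD, and 0.63 and 0.47 for TNF-α in control KD and in GSTM1 KD, where the median of all genes was -0.02 and -0.01. The comparisons share libraries, so these values are given side by side only.

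**Figure D2:**
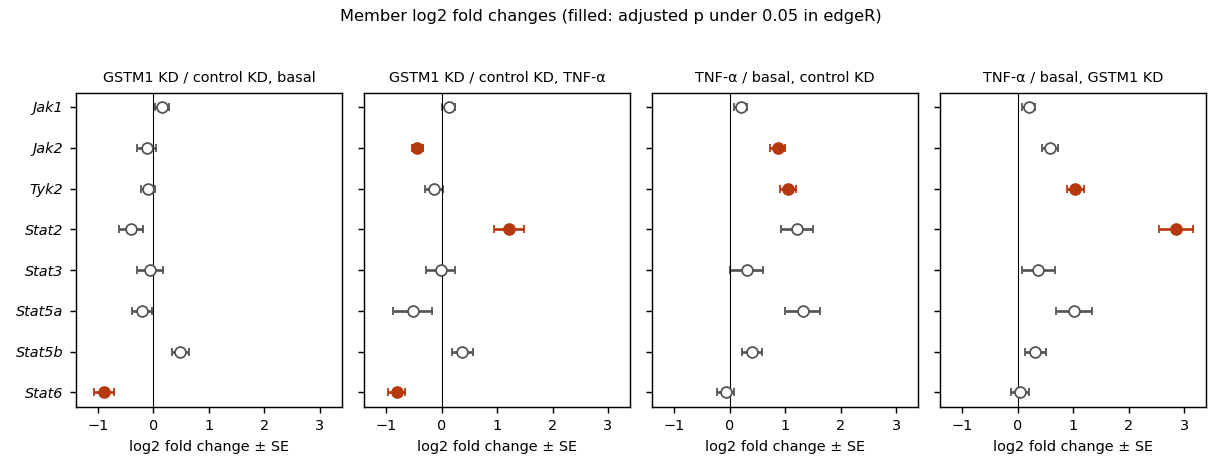
Log2 fold change (horizontal axis) with its standard error for the 8 members tested, in 4 comparisons from edgeR, with filled points for an adjusted p under 0.05. GSTM1 KD against control KD has filled points for Stat6 in both states (-0.90 and -0.81) and for Stat2 (1.22) and Jak2 (-0.44) with TNF-α, and the response to TNF-α has filled points for Tyk2 in both knockdowns (1.05 and 1.03), for Jak2 in control KD (0.86) and for Stat2 in GSTM1 KD (2.85).

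Ratios of TPM within a library do not depend on the scaling between libraries and show the balance between members. Stat2 to Stat6 stood at 0.826 and 1.27 in basal control KD and 1.35 and 1.61 in basal GSTM1 KD, and at 2.10 and 2.92 against 12.7 and 6.76 with TNF-α. Stat5a to Stat5b stood at 0.646 and 0.466 against 0.357 and 0.316 in the basal state and at 0.981 and 1.29 against 0.569 and 0.553 with TNF-α, lower in GSTM1 KD in each state without overlap. Jak2 to Jak1 stood at 0.391 and 0.439 against 0.334 and 0.363 in the basal state and at 0.672 and 0.655 against 0.478 and 0.425 with TNF-α, again lower in GSTM1 KD without overlap. These ratios were chosen after the values were seen and were not tested.

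**Figure D3:**
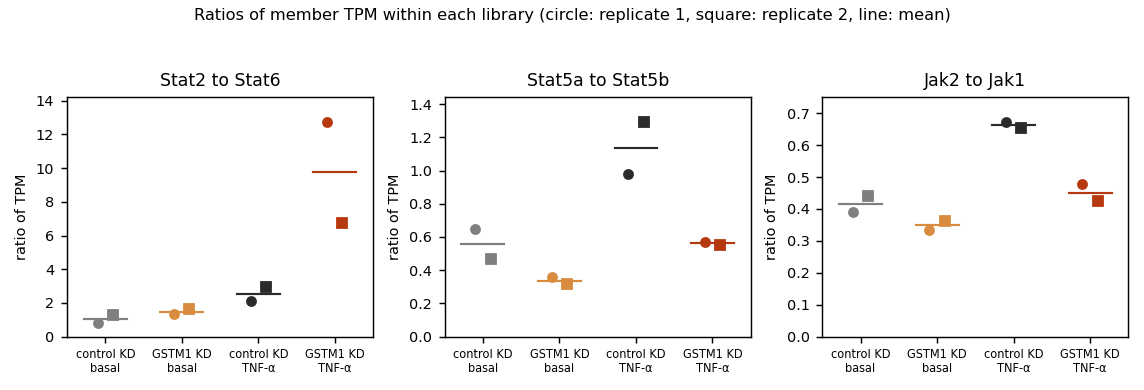
Ratio of TPM between pairs of members within each library (vertical axes, linear from 0) in the 4 groups, with a circle for replicate 1, a square for replicate 2 and a line at the mean. Stat2 to Stat6 is highest in stimulated GSTM1 KD, at 6.76 and 12.7, and Stat5a to Stat5b and Jak2 to Jak1 are highest in stimulated control KD.

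The other genes of the pathway were taken from lists of ligands, receptors, regulators, partners and target genes, 126 genes found in all. Of these, 91 were tested in the basal state between GSTM1 KD and control KD, where 2 were higher and 9 lower, or 12.1% called beside 10.2% of all genes. With TNF-α 97 were tested, where 19 were higher and 15 lower, or 35.1% called beside 16.2% of all genes, with 15 of the 19 in the list of STAT2-complex targets, chosen like the other lists with earlier results of these data known. TNF-α raised 23 of 99 tested in control KD and 34 of 99 in GSTM1 KD, beside 2.10% and 2.35% of all genes called higher, and every call on these genes in the responses was a rise. The number of all genes called between GSTM1 KD and control KD depended on single libraries. It fell to few or none when a GSTM1 KD library was left out, and it rose when a control KD library was left out. Such fits leave 1 library in a group.

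With TNF-α, ligands of JAK-coupled receptors had the most lower calls of the 9 lists: 6 of 11 tested were lower in GSTM1 KD, beside 8.92% of all genes, and 1 was higher, with a median log2 fold change of -1.10 beside -0.01 for all genes tested. Lif, a gp130 cytokine, had 6199 and 4235 counts in stimulated control KD and 2242 and 1387 in stimulated GSTM1 KD (log2 fold change -1.53, SE 0.152, edgeR adjusted p = 0.0108), and Clcf1, another of that family, fell by 1.10 on the log2 scale (SE 0.115, edgeR adjusted p = 0.0112). Csf2, which encodes GM-CSF, had 94 and 68 counts against 14 and 8, and Il23a, a subunit of IL-23, had 202 and 178 counts against 83 and 47, both called lower. Il6 also was lower (log2 fold change -1.49, SE 0.370, edgeR adjusted p = 0.0490), while Il15 was higher (1.3, SE 0.297, edgeR adjusted p = 0.0420). In the basal state Lif and Clcf1 were the ones called lower of 8 tested, at -1.23 and -1.17 on the log2 scale. Il6 (-1.435, edgeR adjusted p = 0.0777) and Il11 (-1.23, edgeR adjusted p = 0.0764) were as low there and did not pass.

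Of the gp130 receptor family, 1 of 7 tested was called in the basal state and 2 of 8 with TNF-α, all higher in GSTM1 KD, and of the interferon and IL-10 receptor list 1 of 6 was called in each state, both lower. Of other JAK-coupled receptors 1 of 7 was called in the basal state, higher, and 2 of 7 with TNF-α, 1 in each direction. The share of all genes called was 10.2% and 16.2%. Il6ra, the IL-6 binding chain, was higher in GSTM1 KD in both states, with 250 and 221 basal counts against 125 and 133 for control KD and 277 and 231 stimulated counts against 60 and 85 (log2 fold change 1.33, SE 0.249, edgeR adjusted p = 0.0344, and 1.76, SE 0.334, edgeR adjusted p = 0.0286). Il6st, the shared gp130 chain, had log2 fold changes of -0.08 (SE 0.260) and -0.06 (SE 0.180) that did not pass. In the interferon and IL-10 receptor list Ifnar1, the chain that binds TYK2, was lower with TNF-α (-0.49, SE 0.0895, edgeR adjusted p = 0.0265), and Ifngr2, the chain that binds JAK2, was lower in the basal state (-0.76, SE 0.130, edgeR adjusted p = 0.0290). TNF-α raised Ifngr2 in control KD (1.34, SE 0.102) and in GSTM1 KD (1.73, SE 0.105), with edgeR adjusted p = 0.00148 and 5.8e-04. Il4ra, the receptor chain that recruits STAT6, was at -0.88 (SE 0.202, edgeR adjusted p = 0.0518) in the basal state and lower with TNF-α (-0.76, SE 0.131, edgeR adjusted p = 0.0237). So Il4ra, like Stat6, was lower in GSTM1 KD with TNF-α, and in the basal state Stat6 passed and Il4ra did not.

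Of 18 negative regulators, 1 was called between GSTM1 KD and control KD in the basal state, beside 10.2% of all genes, and 2 with TNF-α, beside 16.2%. Pias1, an inhibitor of STAT DNA binding, was lower in both states (-0.49 in each, SE 0.107 and 0.112, edgeR adjusted p = 0.0453 and 0.0420). Usp18, which restrains signalling at the type I interferon receptor, was higher with TNF-α (1.57, SE 0.344, edgeR adjusted p = 0.0387). Socs1, a direct inhibitor of JAK kinases, rose with TNF-α in GSTM1 KD (2.51, SE 0.377, edgeR adjusted p = 0.0166), and its log2 change in control KD was 0.64 (SE 0.362, edgeR adjusted p = 0.607). The difference of these Socs1 responses was 1.87 (SE 0.518) and did not pass. Between GSTM1 KD and control KD with TNF-α, Socs1 did not pass either (1.48, SE 0.388, edgeR adjusted p = 0.0568). Its stimulated GSTM1 KD libraries were far apart, at 36.4 and 16.3 CPM. Of 9 partners and coactivators, 1 was lower in GSTM1 KD in the basal state, and 1 was higher and 3 lower with TNF-α, beside the same shares of all genes. Stam2, a signal-transducing adaptor, was lower in both states (-0.67 and -0.59, SE 0.100 and 0.0974, edgeR adjusted p = 0.0238 and 0.0218), and the JAK2-binding adaptor Sh2b1 and the acetyltransferase gene Ep300 were lower with TNF-α (both -0.54, SE 0.0936 and 0.111, edgeR adjusted p = 0.0244 and 0.0335). Irf9, the DNA-binding partner of STAT2, had 1377 and 876 counts in stimulated control KD and 2937 and 1812 in stimulated GSTM1 KD (1.07, SE 0.158, edgeR adjusted p = 0.0178), and TNF-α raised it in control KD (0.74, SE 0.139, edgeR adjusted p = 0.0434) and in GSTM1 KD (1.74, SE 0.142, edgeR adjusted p = 0.00162).

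Target genes were listed by the STAT they belong to, with 7 genes (Irf9, Usp18, Il4ra, Socs3, Osmr, Cish and Socs2) also in the lists above. Of 23 targets of the STAT2 complex, 15 were higher and 0 lower in GSTM1 KD with TNF-α, beside 7.26% of all genes called higher, with a median log2 fold change of 1.31, against 0 higher and 1 lower of 21 tested in the basal state (median -0.10). The one lower was Ifit1 (-0.89, SE 0.177, edgeR adjusted p = 0.0385), which with TNF-α was higher (1.63, SE 0.312, edgeR adjusted p = 0.0288). Rsad2, the antiviral protein viperin, had 2283 and 2165 counts in stimulated control KD and 17365 and 5992 in stimulated GSTM1 KD (2.30, SE 0.412, edgeR adjusted p = 0.0252). TNF-α raised 12 of the 23 in control KD (median 1.5) and 21 in GSTM1 KD (median 2.93), beside 2.10% and 2.35% of all genes called higher. The median difference of the responses was 1.42, with none of them called in edgeR with the filter on low counts. Of the 16 genes of this list with a promoter in the RefSeq table, 9 (56.2%) held the ISRE letters at one of their starts, against 3.99% of 27025 genes. This list was chosen with earlier results of these data known, so its direction is not independent evidence. In stimulated GSTM1 KD, Stat2 and 15 of these targets, its partner Irf9 among them, were thus higher together. The 2 libraries of that group were far apart for Rsad2, at 802.1 CPM in replicate 1 and 344.4 CPM in replicate 2. Ifit1 was at 804.1 and 416 CPM, and Irf9 at 135.7 and 104.1 CPM. The calls between GSTM1 KD and control KD depended on single libraries, as given above for all genes.

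Of 16 targets of STAT3 tested, 3 were lower and 0 higher in GSTM1 KD in each state, with medians of -0.39 in both, beside 5.62% of all genes called lower in the basal state and 8.92% with TNF-α. Timp1, an inhibitor of matrix metalloproteinases, fell by 1.57 on the log2 scale in both states (SE 0.258 and 0.183, edgeR adjusted p = 0.0277 and 0.0122), and Serpina3n, a marker of reactive astrocytes, was at -0.78 and -0.85 (SE 0.153 and 0.168, edgeR adjusted p = 0.0377 and 0.0303). Gfap, in the same list, went the other way, at 1.10 and 1.08 (SE 0.556 and 0.553), and did not pass in either state. Socs3 (0.34 and 0.19) and Osmr (0.32 and 0.43) also lay above 0 and did not pass. Stat3 itself did not pass in either state. TNF-α raised 3 of the 16 in each knockdown, Junb, Bcl3 and Cebpb, beside 2.10% and 2.35% of all genes. Among 6 tested targets of STAT5 and STAT6, Il4ra was the 1 call, lower with TNF-α, beside 16.2% of all genes called there.

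**Figure D4:**
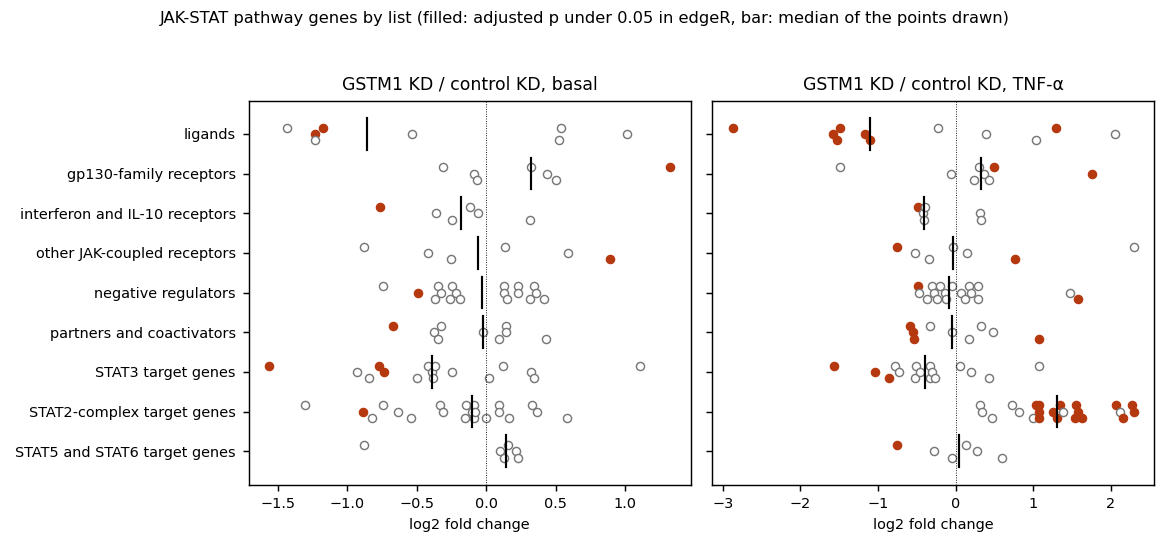
Log2 fold change of GSTM1 KD against control KD (horizontal axes, each with its own range) for the pathway genes tested, 1 point a gene, by list, in the basal state and with TNF-α, with filled points for an edgeR adjusted p under 0.05 and a bar at the median of the points. Genes for which a group had no library above 3 counts are not drawn. Of the STAT2-complex targets 15 of 23 are filled and to the right with TNF-α, and of the ligands 6 of 11 are filled and to the left.

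The labels do not say whether the 2 libraries of a group came from separate cultures, which the study calls biological replicates, so p-values measure the spread between these libraries. With 2 libraries a group an exact test cannot pass 0.05, and every p-value above comes from a model fitted across all genes. Across the 8 calls on members, each kept its direction in every alternative and lost significance in at least 1 fit that left out a library. Such a fit keeps 1 library in a group and takes the spread from the remaining groups. A loss of significance there does not by itself mean a smaller change.

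**Figure D5:**
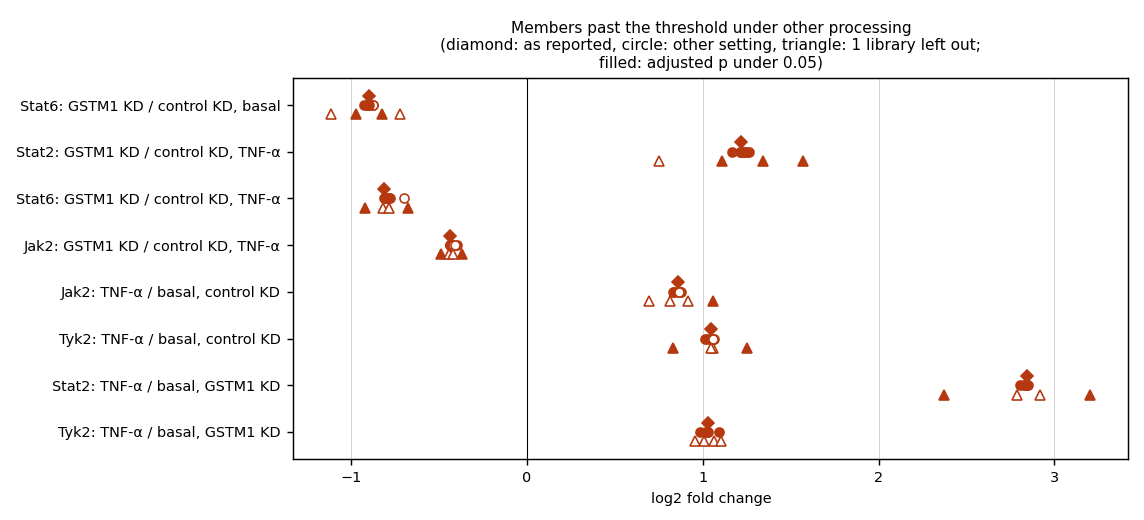
Log2 fold change (horizontal axis) of each of the 8 member calls as reported (diamond), under 8 other settings each (circles) and with 1 library left out (triangles), with filled symbols for an adjusted p under 0.05. Directions never change, Stat2 in stimulated GSTM1 KD against control KD ranges from 0.75 to 1.57 with 1 library left out, and open triangles are present in every row.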

How the data were processed

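The authors mapped 100-base paired reads to GRCm38 with STAR 2.5.4b and quantified genes with RSEM 1.3.0. The expected counts deposited per gene are unnormalized RSEM estimates, which can be fractional, and the deposited TPM values are scaled by length and total by the authors' RSEM run. Expected counts were rounded, and totals ranged from 17349676 to 34434633. edgeR 4.0.16 (R 4.3.3) was run with TMM scaling, filterByExpr on the groups, its quasi-likelihood test, and Benjamini-Hochberg adjusted p-values over all genes (threshold 0.05). GSTM1 KD and control KD were compared on the 4 libraries of a state. TNF-α responses and their difference used all 8. CPM values use library sizes times TMM factors. The alternatives were DESeq2 1.42.0 (the study's tool, for which its methods name the contrast of stimulated with unstimulated cells), DESeq2's size factors, library size only, no filter, a minimum of 10 counts per library, the replicate number as a block, effective lengths as offsets, other libraries in the fit and leaving out each library.

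Named genes are all members and Gstm1, up to 4 genes per pathway list and comparison with the smallest p-values past the threshold, and the 3 genes most like each called member. Il6st, and values of these genes in further comparisons, were added after their values were seen. The members and lists were chosen with earlier results of these data known. Positions are from GENCODE M21, which held 52480 of 54146 gene IDs with the same version, and the annotation the authors counted on is not given in the sources used here. Promoters are from RefSeq (GRCm38.p6), with 12 entries for the members. Scripts were tested on simulated data. Figures were drawn with matplotlib 3.10.9.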

Additional observations from a re-analysis of the deposited data

How the results depend on the processing

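The number of members past the threshold moved with the fit. For GSTM1 KD against control KD at the basal level it was 1, and it became 2 without a filter on low counts (Stat5b and Stat6) and 0 with effective lengths as offsets. After TNF-α stimulation it was 3, and 4 without a filter (Stat5a added, edgeR adjusted p = 0.0229), 2 with all 8 libraries (Jak2 lost) and 1 (Stat2) with effective lengths as offsets. For TNF-α in control KD it was 2, and 4 with DESeq2 and 4 without a filter, Stat2 and Stat5a being added, but 0 with only the 4 libraries of the comparison. For TNF-α in GSTM1 KD it was 2, and 4 without a filter and 4 with only the 4 libraries, Stat5a and Jak2 being added. For the difference of the responses it was 0, and 1 (Stat2) with DESeq2 and 1 without a filter. Over all genes, fitting only the 4 libraries of a TNF-α response gave 70 higher and 2 lower in control KD (322 and 81 as reported). In GSTM1 KD it gave 518 higher and 173 lower (361 and 45 as reported). Leaving out 1 library gave 0 to 2 members at the basal level, 0 to 5 after TNF-α stimulation, 0 to 2 for TNF-α in control KD and 0 to 1 in GSTM1 KD. Over all genes, the number called between GSTM1 KD and control KD fell to few or none without a GSTM1 KD library, and rose without a control KD library. The cause of these changes was not tested.

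With the replicate number as a block, 2 members passed at the basal level (Stat5b and Stat6), 4 after TNF-α stimulation (Stat5b added), 3 for TNF-α in control KD (Stat5a added), 3 in GSTM1 KD (Jak2 added) and 0 for the difference. Over all genes the block also gave more calls. Between GSTM1 KD and control KD it gave 2342 higher and 2370 lower of 14899 at the basal level (686 and 838 as reported). After TNF-α stimulation it gave 2064 and 2238 of 14593 (1059 and 1301 as reported). For TNF-α it gave 652 and 336 of 15332 in control KD (322 and 81 as reported) and 613 and 195 in GSTM1 KD (361 and 45 as reported). Same-numbered libraries deviated together, with correlations of 0.22 to 0.687 between groups, but with 2 replicates and no label that says what a number marks they were not taken as pairs.

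Of 504 member values under alternatives, 37 had another sign than reported, all of members that did not pass as reported. Stat3 after TNF-α stimulation became 0.0226 with library size only, 0.0293 with the block, 0.0890 with effective lengths and 0.0034 with all 8 libraries, and -0.36 to 0.44 with a library left out. Stat6 for TNF-α in GSTM1 KD became -0.0088 with library size only. For the difference, Jak1 became -0.0139 with DESeq2, -0.0117 with DESeq2's size factors, -0.0106 with library size only and -0.0223 with at least 10 counts, and Tyk2 0.0309 with effective lengths. With a library left out, GSTM1 KD against control KD spanned -0.36 to 0.30 for Stat3 and -0.29 to 0.0504 for Jak2 at the basal level, and -0.98 to 0.11 for Stat5a and -0.34 to 0.0903 for Tyk2 after TNF-α stimulation. TNF-α spanned -0.14 to 0.69 for Stat3 and -0.20 to 0.0541 for Stat6 in control KD, and -0.14 to 0.26 for Stat6 in GSTM1 KD. The difference spanned -0.32 to 0.50 for Stat3, -0.74 to 0.33 for Stat5a, -0.32 to 0.18 for Stat5b, -0.0794 to 0.33 for Stat6, -0.10 to 0.0893 for Jak1 and -0.22 to 0.20 for Tyk2.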
